A study of Mus musculus with 16 samples.

Results

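The choroid plexus genes *Ttr*, *Folr1*, *Kcne2*, *Ecrg4*, *Wfdc2*, *Aqp1*, *Sostdc1*, *Kcnj13*, *Kl* and *Clic6* were followed through all pools of a mouse neocortex microarray series. These 10 genes were found among 20134 named genes with a value on all arrays, by the RefSeq accession that each probe carries, and they were represented by 14 of the 55681 distinct gene probes. Since they were chosen by measured values, namely that *Ttr* and other choroid plexus genes had been seen to differ between these same pools, their changes after surgery are given as a description, and no test was made on them. *Folr1*, *Wfdc2*, *Sostdc1* and *Kcnj13* each had 2 probes. Of these, the one with the higher mean signal stands for the gene, and the other is given beside it.

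The tissue was the right neocortex, rostral from bregma, of C57BL/6J mice, that is, the side opposite to an aspiration (hemisuction) of the left cortex with its sensorimotor area. Surgery was done on postnatal day 7 (neonatal hemisuction, NBH) or in adults of 8 to 12 weeks (ABH). RNA was taken 1 week and 4 weeks later, at the labeled ages of 14 and 35 days (NBH) and of 11 and 15 weeks (ABH), and from control mice without surgery at P7, P14, P35 and 10 weeks. Each of these 8 conditions was 1 pool of RNA from 4 male animals. A pool was hybridized on an array with the Cy3 dye and on another with the Cy5 dye, giving 16 arrays. The 2 arrays of a pool share the same RNA, so that the SD of the 2 dyes, given after ± throughout, is a technical error only and says nothing of the spread between animals. All control pools lay in the first row of a chip and all surgery pools in the second, so that surgery and chip position cannot be told apart. NBH 1 week and NBH 4 weeks were compared with the controls of the same age, P14 and P35, and ABH 1 week and ABH 4 weeks were both compared with the 10 weeks control, which they share and which was younger than either.

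The choroid plexus is the epithelium that hangs in the brain ventricles, produces the cerebrospinal fluid and forms the barrier between this fluid and the blood. Its cells carry ion channels and water channels, take up folate and other nutrients from the blood, and secrete carrier proteins and growth factor antagonists into the fluid. It is not part of the neocortex, and *Ttr* is widely used as its marker in whole brain tissue. None of these genes is exclusive to it, and *Aqp1*, *Ecrg4* and *Sostdc1* are known from other cells as well. In tissue measured as a whole, more or fewer cells of a type and more or less RNA per cell cannot be told apart.

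Signals are given on the log2 scale relative to the 75th percentile of the same array, so that 0 is the level of that percentile, a difference of 1 is 2-fold, and values are compared between pools for the same probe only. A gene was called higher in a pool at 1.5-fold or more and lower at 0.75-fold or less with both dyes. The study's methods name these fold limits where they describe the RT-PCR. For its arrays the study used a significance threshold from an error model, which was not applied here. For a comparison, the probe had to be well above background with both dyes in 1 pool or in both. Where only 1 pool met this, the fold is a lower bound and is written as "at least". Over the 16 arrays, 60.2% to 72.2% of the gene spots were well above background. No member was saturated on any array, and no member was above background in the channel that held no labeled RNA.

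In NBH 1 week, 9 of the 10 members were called higher, with *Clic6* as the exception. Over all genes compared, 0.472% were called higher and 0.427% lower. In NBH 4 weeks 5 of 10 were called higher (*Ttr*, *Folr1*, *Kcne2*, *Ecrg4*, *Sostdc1*), against 0.214% higher and 0.75% lower over all genes. In ABH 1 week only *Ecrg4* and *Aqp1* were called higher among the 8 that could be compared, against 4.44% and 6.37% over all genes. In ABH 4 weeks 9 of 10 were called higher, all but *Kcnj13*, against 0.43% and 0.196%. No member was called lower by its chosen probe in any comparison. *Kcne2* and *Wfdc2* were not well above background with both dyes in the controls, so that they could be compared only through the surgery pool. With all 4 arrays required to be well above background, 7 of 8 members were called higher in NBH 1 week and 4 of 8 in NBH 4 weeks. In ABH 1 week it was 2 of 8, and in ABH 4 weeks 7 of 8. Since the members were selected with these contrasts in view, nothing is read from these counts against the background. The median log2 fold change of the members compared was 1.30 at 1 week and 0.65 at 4 weeks after NBH, and −0.08 at 1 week and 1.29 at 4 weeks after ABH, where the median of all genes was 0.06, 0.04, −0.08 and 0.07. With 2-fold limits the NBH 4 weeks count was 2, *Ttr* and *Kcne2*. The background split depends on the scaling. With the median of each array in place of the 75th percentile, 58 genes were called higher and 133 lower in NBH 1 week (73 and 66 otherwise), 20 and 170 in NBH 4 weeks (34 and 119), 1266 and 313 in ABH 1 week (725 and 1039), and 57 and 48 in ABH 4 weeks (70 and 32).

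**Figure D1:**
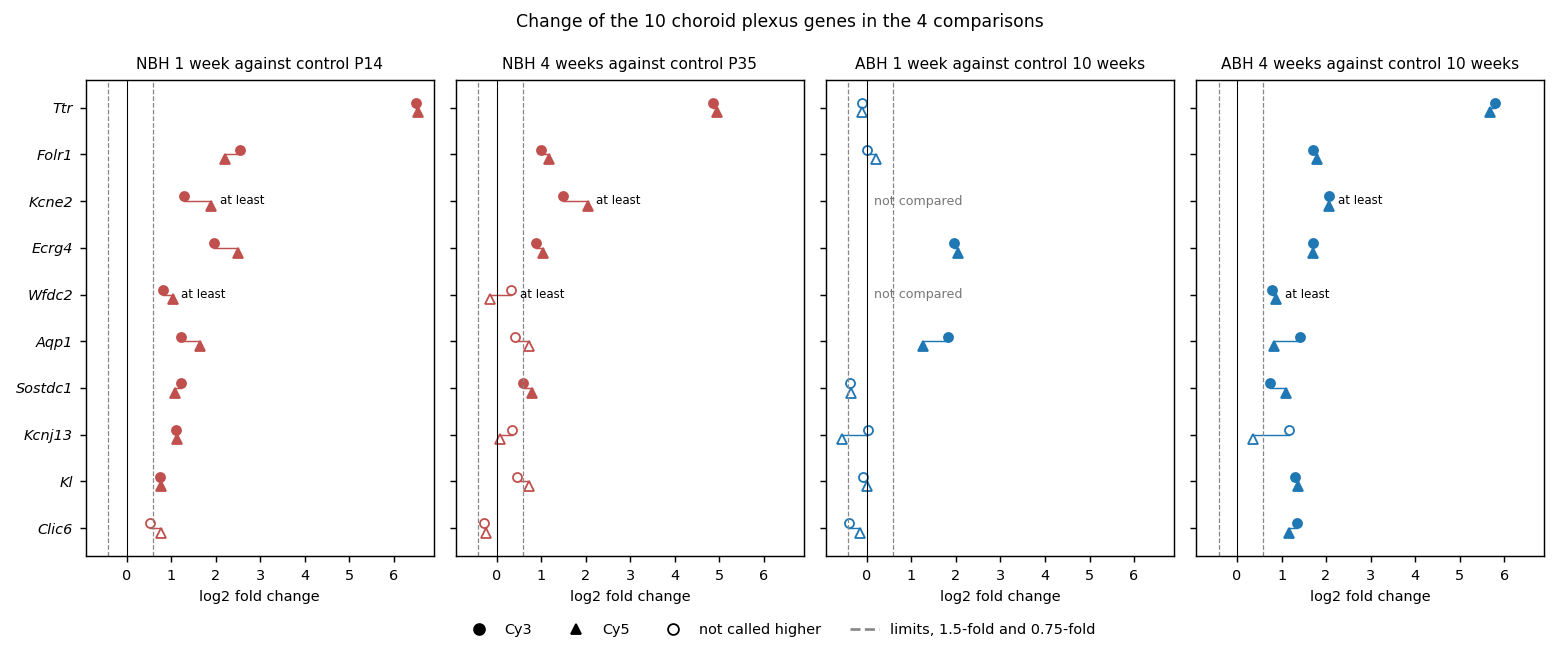
Log2 fold change (horizontal axis) of the 10 genes in each of the 4 comparisons, with the Cy3 array as a circle and the Cy5 array as a triangle. Filled symbols were called higher with both dyes, dashed lines are the 1.5-fold and 0.75-fold limits, and "at least" marks a control below background. Filled symbols are seen for 9, 5, 2 and 9 genes, and *Ttr* lies far to the right of the others in every panel but ABH 1 week.

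Promoter sequence was at hand for 6 members. The RefSeq table of GRCm38.p6 holds 8 start sites for them (2 each for *Kcne2* and *Wfdc2*), and no promoter of *Ttr*, *Folr1*, *Sostdc1* or *Clic6* is shown. The 100 bases before the start are printed for 5 of them, for *Kcne2*, *Kl* and *Kcnj13*, whose highest level was in ABH 4 weeks, and for *Ecrg4* and *Aqp1*, called higher in ABH 1 week as well so that the groups stand side by side. They run 5′ to 3′ on the strand of the gene, and capitals mark the TATA box (TATAAA), the CCAAT box or the GC box (GGGCGG) on either strand.
*Kcne2*, chr16:92292289-92292388, plus strand: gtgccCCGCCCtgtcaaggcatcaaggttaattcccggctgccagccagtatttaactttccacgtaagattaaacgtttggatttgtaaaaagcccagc
*Kl*, chr5:150952507-150952606, plus strand: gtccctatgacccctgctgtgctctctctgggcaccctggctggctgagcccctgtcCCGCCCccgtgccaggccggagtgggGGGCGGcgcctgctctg
*Kcnj13*, chr1:87394730-87394829, minus strand: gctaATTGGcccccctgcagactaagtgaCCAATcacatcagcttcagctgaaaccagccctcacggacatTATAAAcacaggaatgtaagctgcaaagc
*Ecrg4*, chr1:43730502-43730601, plus strand: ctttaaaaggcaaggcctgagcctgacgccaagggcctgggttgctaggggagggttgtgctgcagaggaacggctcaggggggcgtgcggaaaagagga
*Aqp1*, chr6:55336199-55336298, plus strand: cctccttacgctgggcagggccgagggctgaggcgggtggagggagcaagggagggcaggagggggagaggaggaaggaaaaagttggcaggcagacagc
Within the 250 bases before the start, a GC box was found in 4 of the 6 genes (*Aqp1*, *Kcne2*, *Kl* and *Wfdc2*) and in 32.7% of all 32851 promoters. Counted by start site it was 5 of 8, and the second start of *Kcne2*, which is not printed, had none. *Kcnj13* held the only TATA box, 29 bases before its start, and the only CCAAT boxes, 71 and 96 bases before it, where 12.4% and 33.8% of all promoters hold these letters. The letters TAATCC, a core bound by OTX homeodomain factors such as the choroid plexus regulator OTX2, and TGTTTAC, a forkhead core, were in none of the 6 genes, and in 6.25% and 3.17% of all promoters. The share of G and C ranged from 45.2% in *Kcnj13* to 66.8% in *Kl*, with a median of 52.4% over all promoters. Of the 4 genes with the highest level in ABH 4 weeks, *Kcne2* (at the printed start only) and *Kl* share a GC box, *Kcnj13* shares no motif of these with them and *Clic6* was not examined. A match of letters is not a bound site.

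*Ttr* (NM_013697) encodes transthyretin, the carrier of thyroxine and of the retinol binding protein in cerebrospinal fluid and plasma. Its normalized log2 signal was 0.40 in control P7, −1.48 in control P14, −0.97 in control P35 and −1.09 in control 10 weeks. After surgery it was 5.05 at 1 week and 3.94 at 4 weeks after NBH, and −1.20 at 1 week and 4.65 at 4 weeks after ABH. The 2 dyes of any pool lay within an SD of 0.15, and *Ttr* was the only member in which no 2 neighbouring pools of this order overlapped. The log2 fold change was 6.53 ± 0.03 at 1 week and 4.90 ± 0.06 at 4 weeks after NBH, and −0.11 ± 0.01 at 1 week and 5.74 ± 0.08 at 4 weeks after ABH. Against control P7, the age at surgery, the NBH 1 week difference was 4.65. On the linear scale the former 4 were 92.4-fold, 29.9-fold, 0.926-fold and 53.5-fold of the control.

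*Folr1* (NM_008034) encodes the folate receptor alpha, which brings folate across this epithelium. Its chosen probe had a signal of −2.86 in control P7, −2.72 in control P14, −2.37 in control P35 and −2.39 in control 10 weeks. The signal was −0.34 at 1 week and −1.29 at 4 weeks after NBH, and −2.29 at 1 week and −0.64 at 4 weeks after ABH. The pools therefore took the same order at the top as for *Ttr*, while ABH 1 week overlapped control P35. The log2 fold changes were 2.38 ± 0.24, 1.08 ± 0.12 for the NBH comparisons and 0.10 ± 0.15 and 1.75 ± 0.07 for the ABH comparisons, at 1 week and 4 weeks, an order kept for the genes below. The second probe of the gene did not show this. It was dim, with signals from −3.78 to −2.90, and its log2 fold change was 0.21 (a lower bound) at 1 week and 0.23 at 4 weeks after NBH and 0.25 at 4 weeks after ABH. In ABH 1 week it was called lower (at least 1.55-fold). With the mean of both probes *Folr1* was not called in NBH 4 weeks (0.65).

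*Kcne2* (NM_134110) encodes a potassium channel beta subunit that pairs with *Kcnq1* in the choroid plexus. It was not well above background on both arrays of any control pool or of ABH 1 week, with signals between −4.16 and −3.24 in these 5 pools. Its signal was −1.96 in NBH 1 week, −2.29 in NBH 4 weeks and −1.52 in ABH 4 weeks. All arrays of the latter 3 pools lay above all arrays of the others. After NBH the gene was higher by at least 3.02-fold at 1 week and at least 3.41-fold at 4 weeks, and at 4 weeks after ABH by at least 4.16-fold. It was not compared in ABH 1 week.

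*Kl* (NM_013823) encodes klotho, the membrane protein that makes an FGF receptor responsive to FGF23. Its control signals were −3.33 at P7, −3.16 at P14, −2.89 at P35 and −2.94 at 10 weeks. The surgery pools gave −2.41 at 1 week and −2.30 at 4 weeks after NBH, and −2.99 at 1 week and −1.61 at 4 weeks after ABH. Here too the pools NBH 1 week, NBH 4 weeks and ABH 4 weeks were above the other 5 on every array, but ABH 4 weeks was the highest. The log2 fold changes were 0.76 ± 0.02, 0.59 ± 0.18, −0.04 ± 0.08 and 1.34 ± 0.05. The NBH 4 weeks change, 1.51-fold on average, was not called, because the Cy3 array gave 0.47.

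*Ecrg4* (NM_024283) encodes a secreted peptide precursor also known as augurin. Its signal was −1.35 in control P7, −2.27 in control P14, −1.86 in control P35 and −1.86 in control 10 weeks. All 4 surgery pools lay above all controls, with −0.03 at 1 week and −0.91 at 4 weeks after NBH, and 0.15 at 1 week and −0.15 at 4 weeks after ABH. The log2 fold changes were 2.23 ± 0.38, 0.95 ± 0.12, 2.01 ± 0.06 and 1.71 ± 0.00, so that *Ecrg4* was the only member called higher in all 4 comparisons. Its level in ABH 1 week, the highest of all, overlapped that in NBH 1 week.

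*Aqp1* (NM_007472), the water channel of the apical membrane of the choroid plexus, was the other member called higher in ABH 1 week. Its control signal was −1.80 at P7, −2.31 at P14, −2.96 at P35 and −2.88 at 10 weeks. After surgery it was −0.87 at 1 week and −2.40 at 4 weeks after NBH, and −1.34 at 1 week and −1.75 at 4 weeks after ABH. The highest levels were thus those at 1 week after either surgery. The log2 fold changes were 1.44 ± 0.30, 0.56 ± 0.22 (not called), 1.54 ± 0.40 and 1.13 ± 0.41.

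*Sostdc1* (NM_025312) encodes a secreted antagonist of BMP and Wnt ligands. Its signal was −1.10 in control P7, −2.27 in control P14, −2.67 in control P35 and −2.76 in control 10 weeks. It was −1.12 at 1 week and −1.97 at 4 weeks after NBH, and −3.13 at 1 week and −1.84 at 4 weeks after ABH. Control P7 and NBH 1 week overlapped, and ABH 1 week was the lowest pool. The log2 fold changes were 1.15 ± 0.08, 0.70 ± 0.14, −0.37 ± 0.02 and 0.92 ± 0.24. The second probe gave the same signs, with 0.77, 0.61, −0.60 and 0.59, but it was called higher in NBH 1 week only, and it was called lower in ABH 1 week. Against control P7, the age at surgery, the NBH 1 week change was −0.01.

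*Clic6* (NM_172469) belongs to the chloride intracellular channel family. It was the only member not called in NBH 1 week and the only one with a negative mean change in NBH 4 weeks. Its control signal was −2.46 at P7, −1.39 at P14, −1.14 at P35 and −1.66 at 10 weeks. The surgery pools gave −0.74 at 1 week and −1.40 at 4 weeks after NBH, and −1.93 at 1 week and −0.41 at 4 weeks after ABH. Only ABH 4 weeks was called, with a log2 fold change of 1.25 ± 0.14. In NBH 1 week it was 0.65 ± 0.19, with 0.52 on the Cy3 array and 0.78 on the Cy5 array, in NBH 4 weeks −0.26 ± 0.03 and in ABH 1 week −0.27 ± 0.17.

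*Kcnj13* (NM_001110227) encodes the inward rectifier Kir7.1, the potassium channel of the apical membrane. Its signal was −2.16 in control P7, −2.35 in control P14, −1.64 in control P35 and −1.33 in control 10 weeks, and after surgery −1.23 and −1.44 in the NBH pools and −1.59 and −0.56 in the ABH pools, at 1 week and 4 weeks. It was called higher in NBH 1 week alone (1.12 ± 0.02). In ABH 4 weeks it was 0.77 ± 0.57, since the Cy3 arrays gave 1.17 and the Cy5 arrays 0.36. Its second probe also gave 0.77 in ABH 4 weeks (1.01 with Cy3 and 0.54 with Cy5), and 0.70 in NBH 1 week, neither of them called.

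*Wfdc2* (NM_026323), a secreted protein of the whey acidic protein family, was near background in most pools. It was well above background with both dyes after NBH at 1 week (−2.91) and 4 weeks (−3.44) and after ABH at 4 weeks (−3.03), and not in the other pools, which lay between −4.02 and −3.48. It was higher by at least 1.90-fold in NBH 1 week and by at least 1.77-fold in ABH 4 weeks. Both calls were lost against another control pool, with 0.57 against P7 and 0.50 against P35, and with 2-fold limits, and the latter also with the mean of both probes (0.50). In NBH 4 weeks, where the dyes gave 0.32 and −0.14, it was not called, and its second probe was called in no comparison.

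**Figure D2:**
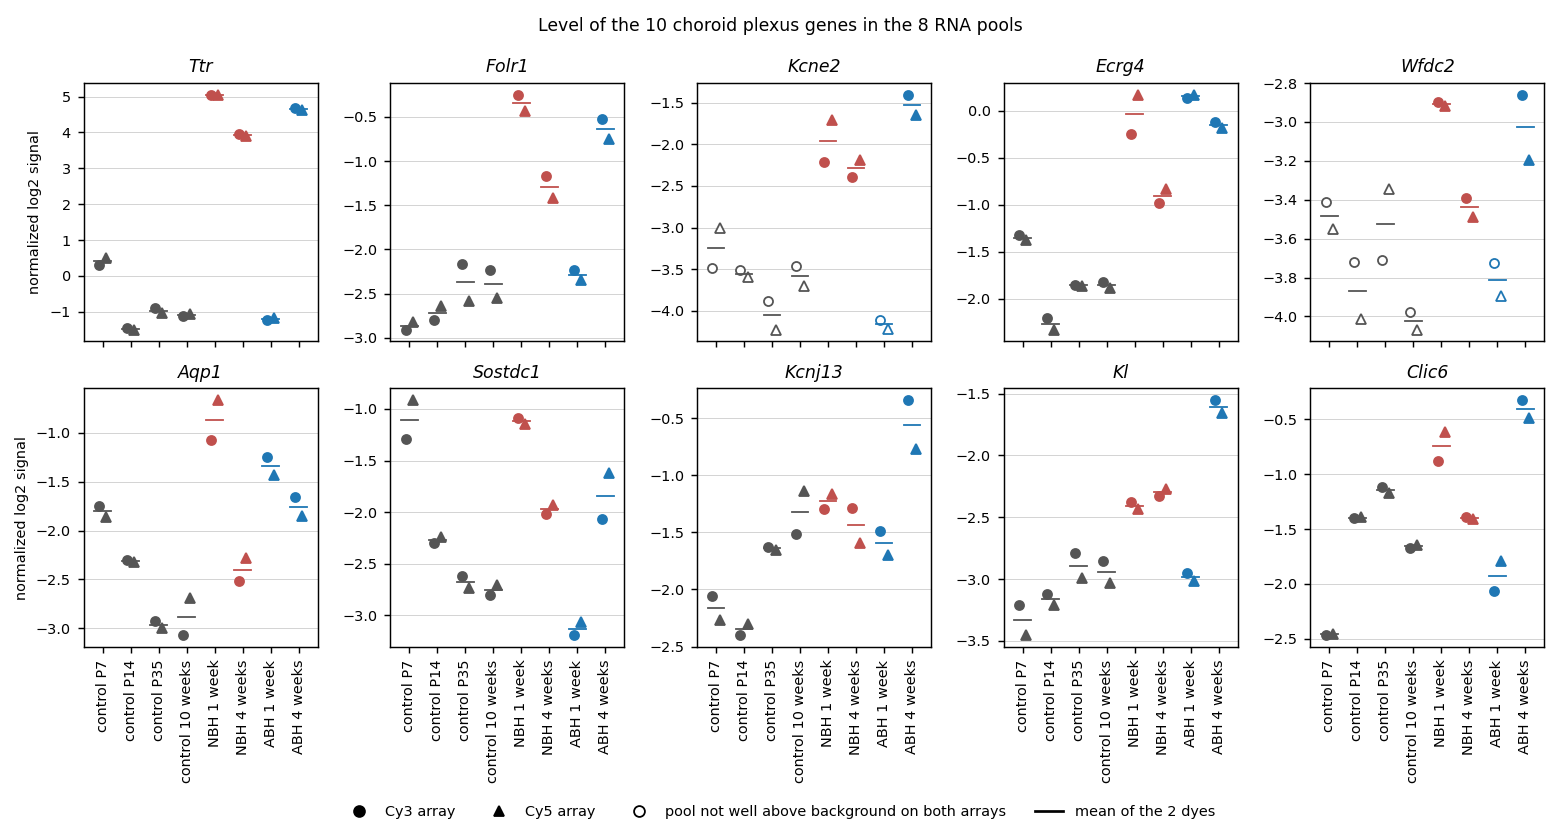
Normalized log2 signal (vertical axis, scaled for each gene) of the 10 genes in the 8 pools, for the Cy3 array (circle), the Cy5 array (triangle) and their mean (line). Open symbols mark pools that were not well above background on both arrays. *Ttr*, *Folr1*, *Kcne2* and *Kl* separate NBH 1 week, NBH 4 weeks and ABH 4 weeks from the other 5 pools on every array, whereas *Ecrg4* and *Aqp1* are also high in ABH 1 week.

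The members did not scale as a single unit. In 4 of them (*Ttr*, *Folr1*, *Kcne2* and *Kl*) the 3 pools NBH 1 week, NBH 4 weeks and ABH 4 weeks lay above the other 5 on every array, and in *Wfdc2* they did so by the mean of the dyes only. The highest pool was NBH 1 week for *Ttr*, *Folr1*, *Wfdc2* and *Aqp1*, ABH 4 weeks for *Kcne2*, *Kcnj13*, *Kl* and *Clic6*, ABH 1 week for *Ecrg4* and control P7 for *Sostdc1*. Over the 8 pools the Pearson correlation of the log2 signals of 2 members had a median of 0.64 over the 45 pairs, from 0.02 to 0.96, and none was negative. The points of each correlation are the same 8 pools on the same arrays, 3 of which differ strongly from the rest, and no p-value is given.

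The net rise over control on the linear scale, divided by the net rise of the same gene in NBH 1 week, has the same value for genes that rose in the same proportion. It is given for the 8 genes that were above background in the controls. In NBH 4 weeks it was 45.1% for *Ttr* (45.9% with Cy3 and 44.3% with Cy5), 33.5% for *Folr1*, 33.3% for *Ecrg4*, 38.5% for *Sostdc1*, 17.6% for *Aqp1*, 21.7% for *Kcnj13*, 88.8% for *Kl* and −33.7% for *Clic6*. In ABH 4 weeks it was 75.2% for *Ttr* (76.9% and 73.5%), 70.8% for *Folr1*, 80.5% for *Ecrg4*, 53.0% for *Sostdc1* and 45.7% for *Aqp1*. For the remaining genes it was above the NBH 1 week rise, with 258% for *Kl* (262% and 254%), 200% for *Clic6* (294% and 143%) and 124% for *Kcnj13* (201% and 53.9%). In ABH 4 weeks *Folr1* (69.1% with Cy3 and 72.9% with Cy5) lay close to *Ttr*, whereas in NBH 4 weeks it was lower (31.7% and 35.7%) by more than the difference between the dyes. *Kl* was above both genes on each array of the 2 pools. In ABH 1 week the share was −0.106% for *Ttr* and 2.01% for *Folr1*, against 107% for *Ecrg4* and 74.0% for *Aqp1*.

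**Figure D3:**
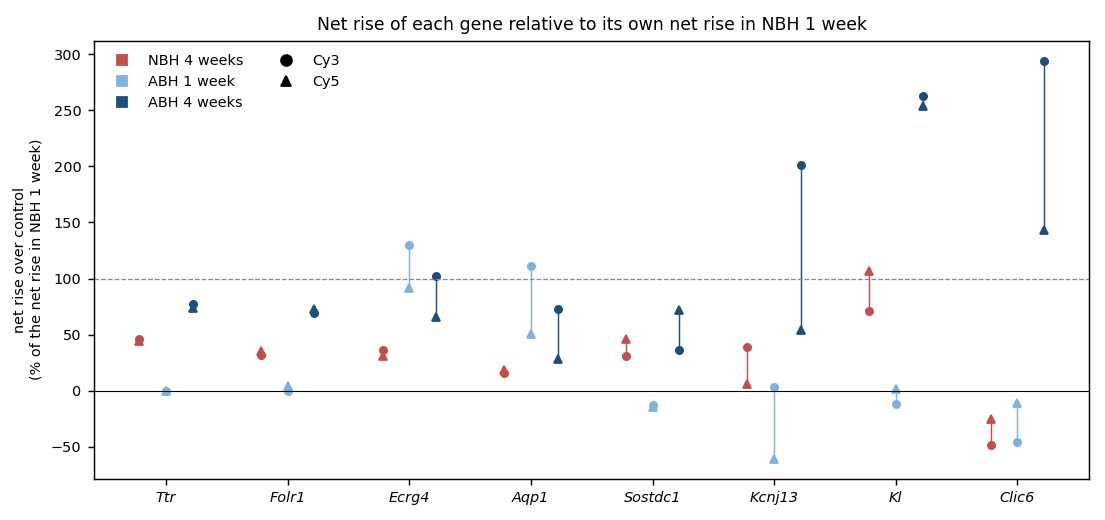
Net rise over control (vertical axis, in % of the net rise of the same gene in NBH 1 week) in NBH 4 weeks, ABH 1 week and ABH 4 weeks, with the Cy3 (circle) and Cy5 (triangle) arrays joined by a line. *Ttr*, *Folr1* and *Ecrg4* lie between 65 and 102% in ABH 4 weeks, *Kl* lies near 258%, and in ABH 1 week *Ecrg4* and *Aqp1* alone are above 50%.

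The surgery pools all lay in the same chip row, each in a column of its own, so that pool and column cannot be told apart. Pools of 1 week and of 4 weeks also differ in the age of the animals. In ABH 4 weeks against ABH 1 week, 8 of the 10 members were called higher (all but *Ecrg4* and *Aqp1*) and none lower, with a median log2 difference of 1.34 against 0.12 over all genes. Among the latter, 3.79% were called higher and 4.95% lower. *Kcne2* and *Wfdc2* were not well above background with both dyes in ABH 1 week. They entered this count through ABH 4 weeks only, where they were high, and could not have been called lower. Since the members were selected with these pools in view, nothing is read from the counts of this paragraph against the background. *Ttr* was 57.7-fold higher in ABH 4 weeks than in ABH 1 week, *Kl* 2.60-fold, *Clic6* 2.87-fold and *Folr1* 3.15-fold. In NBH 4 weeks against NBH 1 week, 7 members were called lower (*Ttr*, *Folr1*, *Ecrg4*, *Wfdc2*, *Aqp1*, *Sostdc1* and *Clic6*) and none higher, with a median of −0.76 against −0.07 over all genes, of which 6.6% were called lower and 1.73% higher. *Aqp1* was lowest in this respect, at 0.347-fold of the NBH 1 week level, and *Ttr* was at 0.461-fold.

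The control pools also differed with age. From P7 to P14, *Ttr* (3.68-fold lower), *Sostdc1* (2.25-fold), *Ecrg4* (1.89-fold) and *Aqp1* (1.42-fold) were called lower and *Clic6* was called higher (2.09-fold), out of 8 members compared. Over all genes, 14.6% were called lower and 8.58% higher between these ages. From P14 to P35, the ages of the NBH pools, *Aqp1* was called lower (1.57-fold) and *Kcnj13* higher (1.63-fold), where 6.37% of all genes were called lower and 2.28% higher. From P35 to 10 weeks only *Clic6* was called, 1.43-fold lower, where 0.806% of all genes were called lower and 1.83% higher. The age differences in the controls were therefore much smaller than the surgery change for *Ttr*, and as large for *Sostdc1*. They also reached the size of a surgery change in other members. *Clic6* differed by 1.07 from P7 to P14, against 0.65 in NBH 1 week. *Aqp1* differed by −0.65 from P14 to P35, against 0.56 in NBH 4 weeks.

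Among the 3962 genes that were above background in at least 1 pool and spanned at least 1 on the log2 scale, *Kcne2* was the most similar to *Ttr* over the 8 pools (r = 0.96), *Folr1* was the third (0.93), *Wfdc2* the ninth (0.89) and *Kl* was at rank 18 (0.83). *Sostdc1*, *Kcnj13*, *Clic6*, *Ecrg4* and *Aqp1* were at ranks 76, 78, 100, 104 and 144 (0.66 to 0.49). The members had been chosen by differences between these same pools. Their ranks are therefore a description and give no support to the choice. *Kcne2* and *Wfdc2* were well above background with both dyes in 3 of the 8 pools only and entered through these, so that their r rests in large part on values near background. The 12 genes outside the members with the highest r were *Krt18* (0.95), *2610318N02Rik* (0.93), *Olfr723*, *Serpinb3b*, *Rhox4g*, *Defb38*, *9130230L23Rik*, *Olfr1107*, *Kctd7*, *Il25*, *Tex22* and *Otx2* (0.83). Of these, 5 were well above background on none of the 8 control arrays, and only *2610318N02Rik* was so on all 16 arrays. *2610318N02Rik* had log2 fold changes of 1.85 at 1 week and 1.47 at 4 weeks after NBH, and 0.06 at 1 week and 1.14 at 4 weeks after ABH. *Krt18*, a keratin of simple epithelia, and *Otx2*, a homeodomain factor of the choroid plexus, were the only 2 of the 12 in a list of choroid plexus genes.

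Other genes known from the choroid plexus were examined in a list of 42 on the array, made of 15 transporters and channels, 10 secreted and matrix proteins, 5 receptors and membrane enzymes and 12 intracellular and junction proteins. In NBH 1 week 4 of 37 compared were called higher, all of them as lower bounds, namely *Krt18* (at least 2.35-fold), *Otx2* (2.35-fold), *Calml4* (2.11-fold) and the collagen gene *Col8a2* (2.07-fold). In NBH 4 weeks none of 37 was called higher, and the serotonin receptor gene *Htr2c* was called lower (−0.61). In ABH 4 weeks 5 of 38 were called higher, *Krt18* (2.34-fold), *Steap1* (at least 2.35-fold), *Otx2* (at least 1.73-fold), *Calml4* (at least 1.55-fold) and the clotting factor gene *F5* (1.57-fold). The median log2 fold change of the list was 0.16, 0.11 and 0.25 in these comparisons. The genes named here with a bound could be compared only because the surgery pool was above background, and their calls add no support to those of the members. None of the 15 transporters and channels was called higher in any comparison. Over all genes, 0.472% were called higher in NBH 1 week and 0.214% in NBH 4 weeks, where 0.75% were called lower. In ABH 1 week 4.44% were called higher, and in ABH 4 weeks 0.43%. The lack of higher calls among so few transporters and channels is therefore not particular to them. Many of these genes are also expressed in the neocortex, and the summed level of the 15 was 26.8 to 43.3 times the 75th percentile in the controls and 27.2 to 35.3 times in the surgery pools.

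In ABH 1 week other genes of this list were called, where 4.44% of all genes were called higher and 6.37% lower. Of 36 genes compared, 6 were called higher, among them *Lbp* (2.89-fold), *Col8a2* (2.81-fold), *Igfbp2* (2.50-fold), *Col8a1* (2.12-fold) and *Rarres2* (1.72-fold), which encode secreted or matrix proteins. The bicarbonate transporter gene *Slc4a5* (at least 2.08-fold) and the prolactin receptor gene *Prlr* (1.63-fold) were called lower. These were 2 of 36, near the share over all genes, so that nothing is read from the lower calls. *Ttr* and *Folr1* were not called there, with log2 fold changes of −0.11 and 0.10, and *Otx2* was not compared.

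Of 16 paralogs of the members, 10 were compared in NBH 1 week and 11 in NBH 4 weeks, and none was called. Over all genes 0.472% were called higher and 0.427% lower in NBH 1 week, and 0.214% and 0.75% in NBH 4 weeks. The lack of calls among so few genes is therefore not particular to them. In ABH 1 week 12 were compared, where 4.44% of all genes were called higher and 6.37% lower. The folate receptor gene *Folr2*, known from macrophages, was called higher there with a log2 fold change of 2.66 ± 0.41, where *Folr1* gave 0.10. So were the *Kcne2* relative *Kcne1l* (1.88) and the *Clic6* relative *Clic1* (1.43), while *Klb* was called lower (at least 1.86-fold). *Kcne1l* was also called higher in ABH 4 weeks (1.20 ± 0.38), as 1 of 12 compared, against 0.43% of all genes. Of 17 partners of the members, such as the thyroid hormone transporter *Slco1c1*, the folate transporters *Slc46a1* and *Slc19a1*, the *Kcne2* partner *Kcnq1* and the *Kl* partner *Fgfr1*, all 17 were compared and none was called in any of the 4 comparisons. Their median log2 fold change was 0.08, 0.04, 0.06 and 0.04.

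Markers of other tissues that the dissected piece could hold were read in the same pools. The cortical neuron markers were well above background in every pool (10 of 10), and the summed level of these was 55.0 to 67.6 in the surgery pools and 58.4 to 62.8 in the controls. In this list 1 gene was called lower in ABH 4 weeks, where 0.196% of all genes were, and no other call was made. The summed level of the 10 members was 1.97 to 3.31 in the controls, 37.6 and 18.0 in the NBH pools and 3.11 and 29.5 in the ABH pools. Without *Ttr* it was 1.61 to 1.99 in the controls, 4.40 and 2.64 in the NBH pools and 2.68 and 4.37 in the ABH pools. Ependymal cells line the ventricle beside the choroid plexus. All 12 ependymal markers with motile cilia were well above background in every pool. Of these, *Mia* was called higher in ABH 1 week (1.05) and *Ccdc153* in ABH 4 weeks (0.75), where 4.44% and 0.43% of all genes were. None of the markers was called in the NBH pools. Their summed level was 5.02 to 5.53 in the controls and 5.15 to 6.35 in the surgery pools.

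The leptomeninges are the connective tissue of the brain surface. In ABH 1 week 8 of 13 of their markers were called higher, where 4.44% of all genes were. The log2 fold changes were 4.59 for *Col1a1*, 4.43 for *Col3a1* and 3.45 for *Col1a2*, and no marker was called in the other 3 comparisons. Their summed level was 88.8 in ABH 1 week, 16.9 to 24.5 in the other surgery pools and 18.8 to 25.0 in the controls, with all 13 above background in every pool. The part of these cells in the higher *Ecrg4* and *Aqp1* signal of ABH 1 week was not tested. *Ttr* is also expressed in the liver. Liver and plasma protein genes had 3 of 7 above background in the controls and 3 or 4 in the surgery pools, with summed levels of 5.87 to 10.2 and 8.24 to 10.3. None of the 3 or 4 compared was called higher in any comparison. The fibrinogen gene *Fga* was called lower in ABH 1 week (−0.56), where 6.37% of all genes were.

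Markers of the striatum, and of the septum and hypothalamus, also differed between the pools, and not in a single direction. Over all genes, 0.427% were called lower in NBH 1 week, 0.75% in NBH 4 weeks and 6.37% in ABH 1 week, and 0.43% were called higher in ABH 4 weeks. Of 12 striatal markers, 1 (*Syndig1l*) was called lower in NBH 1 week, 9 were called lower in NBH 4 weeks, none was called in ABH 1 week and 7 were called higher in ABH 4 weeks. Their summed level was 131, 111, 116 and 181 in these pools and 35.9 (P7) to 168 (P14) in the controls. Of 12 septal and hypothalamic markers, 8 or 9 could be compared. In NBH 4 weeks 5 of 9 were called lower, with *Oxt* at −3.61 and *Avp* at −1.60, in ABH 1 week 3 of 8 and in NBH 1 week 1 of 8. The summed level of the 12 was 4.33 to 6.57 in the surgery pools and 4.88 to 8.84 in the controls. Of 10 hippocampal and thalamic markers, 8 were compared. *Prkcd* was called higher and *C1ql2* lower in ABH 1 week, where 4.44% and 6.37% of all genes were, so that nothing is read from these 2 calls. The summed level of the 10 was 2.71 to 3.65 in the surgery pools and 2.75 to 3.24 in the controls. The part of the dissection in the level of the choroid plexus genes was not tested.

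**Figure D4:**
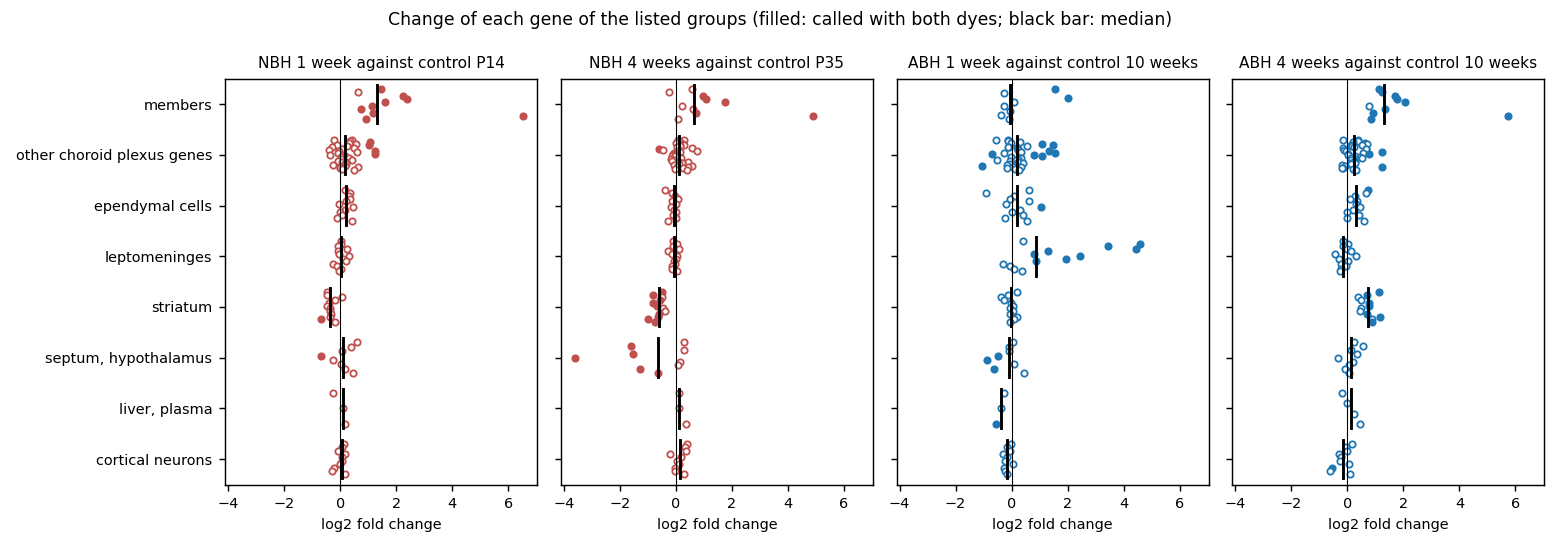
Mean log2 fold change (horizontal axis) of each compared gene of 8 groups in the 4 comparisons. Filled points were called with both dyes, and the black bar is the median of the group. The members are shifted to the right in all panels but ABH 1 week, the leptomeningeal genes in ABH 1 week only, and the striatal genes to the left in NBH 4 weeks and to the right in ABH 4 weeks.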

How the data were processed

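Feature Extraction 11.0.1.1 was used by the authors to quantify 16 one-dye arrays (8 × 60 K), and the deposited tables hold spot intensities in arbitrary units, with mm9 as the build in their headers. The deposited value table holds the processed signal, within 0.497% of the scanner tables for values above 100, with its scale between arrays left as scanned. For the present values, the median signal and background of the labeled channel were corrected with normexp (offset 50, limma 3.58.1 in R 4.3.3), log2 transformed and centered on the 75th percentile of the gene spots. Other steps used Python 3.11.15, numpy 2.4.6 and pandas 2.3.3. Outlier spots (140 to 237 per array) and control spots were dropped, and repeated spots averaged. Median signals were 192.5 to 253 over a background of 59 to 72, and with 2 arrays per pool this limits the precision of dim genes.

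The calls were tested on simulated data. The members and gene lists were chosen with earlier results of these data known. Named genes are the members, listed genes called at least once, paralogs, partners and the 12 genes closest to *Ttr*. Of the 152 listed genes outside the members, 151 were on the array. Alternatives were another signal, offset, scaling, filter, limit, control pool or probe rule, and each dye alone. Proteins and other promoters were not used here. Some listed genes are not reported here by name.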

Additional observations from a re-analysis of the deposited data

Results flagged for a closer look

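These differences were not tested, since each condition is 1 pool. They are listed because both dyes moved one way in a comparison and the opposite way in another. *Ttr* was lower with both dyes in ABH 1 week and higher in ABH 4 weeks, a difference of 5.85 on the log2 scale, and its change in NBH 1 week exceeded that in ABH 1 week by 6.64. For *Sostdc1* the same differences were 1.29 and 1.53. For *Clic6* they were 1.52 and 0.92. *Clic6* also moved in opposite directions in the NBH pools, with a change in NBH 4 weeks minus that in NBH 1 week of −0.91, and at 4 weeks, with a change in NBH 4 weeks minus that in ABH 4 weeks of −1.51. The ABH 1 week changes of *Ttr* (−0.11), *Sostdc1* (−0.37) and *Clic6* (−0.27) and the NBH 4 weeks change of *Clic6* (−0.26) were below the limit for a call, so that these opposite signs rest on small values. With median scaling the ABH 1 week change of *Ttr* was 0.15, so that its sign depends on the scaling.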

How the results depend on the processing

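Over 12 alternatives the counts of members called higher stayed within 1.5 times the reported value, except in NBH 4 weeks with 2-fold limits, where 2 genes were called in place of 5. With Cy3 or Cy5 alone the counts were 9 to 10 in NBH 1 week, 5 to 7 in NBH 4 weeks, 2 in ABH 1 week and 9 to 10 in ABH 4 weeks. *Ttr* kept its calls under every alternative, with 4.65 in place of 6.53 in NBH 1 week against control P7. Of 450 values of single members, 401 kept direction and call, 17 lost the call, 16 gained one, 15 uncalled values changed sign and 1 called value did, namely *Sostdc1* in NBH 1 week against control P7 (−0.013). *Sostdc1* in NBH 4 weeks was not called with median scaling, quantile normalization or the unscaled value table (0.64, 0.64 and 0.61), nor was *Kl* in NBH 1 week with median scaling (0.68). *Wfdc2* lost its calls in NBH 1 week and ABH 4 weeks against another control pool (0.57 and 0.50) and with 2-fold limits, and in ABH 4 weeks with the mean of its probes (0.50). *Clic6* gained a call in NBH 1 week with the processed signal (0.81), with Cy5 alone (0.78) and against control P7 (1.72). *Sostdc1* in ABH 1 week was called lower with the processed signal, offset 0, the value table and the mean of its probes (−0.73, −0.48, −0.63 and −0.49). With the unscaled table *Clic6* was called lower in NBH 4 weeks (−0.56), which gives 5 members higher and 1 lower there. Median scaling moved the median of all genes in ABH 1 week from −0.08 to 0.18, and the unscaled table moved it to −0.12 and −0.20 in the NBH pools at 1 and 4 weeks and to −0.10 in ABH 4 weeks. The cause of these shifts was not tested. No paired analysis was possible because the 2 arrays of a pool are dyes of the same RNA and the comparison within each dye is already made. Dim genes (*Kcne2*, *Wfdc2*, *Otx2*, *Calml4*) have bounds in place of measured folds.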
